A study of Mus musculus with 4 samples.

Results

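The Elane Mpo progenitors were 985 of the 12488 cells kept from 2 single cell RNA-seq libraries of mouse endosteal bone marrow, the marrow trapped within trabecular bone. A kept cell had 200 to 6000 genes with a UMI (a unique molecular identifier, which marks 1 captured RNA molecule) and at most 5% mitochondrial UMIs. A member had a UMI in at least 4 of 5 genes, Elane, Mpo, Prtn3, Ctsg and Prss57, had at least 50 UMIs of Elane, Mpo, Prtn3 plus Ctsg per 10000, and had fewer than 30 of the basophil genes Mcpt8 plus Prss34 per 10000. The rule took 771 of 8308 kept cells at 1 month (1M; 9.28%, exact binomial 95% interval 8.66 to 9.92) and 214 of 4180 at 3 months (3M; 5.12%, 4.47 to 5.83). The basophil limit alone left out 15 cells of the 1M library and 3 cells of the 3M library. In the whole series 24084 of 27907 barcodes were kept.

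The study sorted cells by tdTomato (Td) brightness to profile mesenchymal lineage cells, and blood lineage cells came through the sort with them. Male Col2:Td mice, labelled B6SJL/F1, carried a Col2-Cre transgene and a Rosa26 reporter that turns on tdTomato after Cre has acted. The 1M library pooled 2 mice and the 3M library pooled 3 mice, with 20000 cells loaded for each, and no treatment or gene deletion was given in the labels. Each age was 1 library with no replicate, so no test was possible, and age, animals and library cannot be told apart. All intervals given here are 95% and cover counting error only.

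Granulocytes are built in the marrow in steps. Progenitors first make the serine proteases and myeloperoxidase that fill the azurophil (primary) granules, then stop, and as the cells mature they make the proteins of the specific and gelatinase granules. The granule genes of a cell are therefore used to place it on this path. Elane encodes neutrophil elastase, Prtn3 proteinase 3 and Ctsg cathepsin G, which are related serine proteases. Prss57 encodes a further granule serine protease, and Mpo encodes the enzyme that makes hypochlorous acid from hydrogen peroxide and chloride.

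The 1M library held 108227184 UMIs over 8417 barcodes and the 3M library 32672631 over 4516. Members were deeper than their libraries, with a median of 23878 UMIs (6600 to 58037) against 10279.5 over all kept cells at 1M and 14965 UMIs (2930 to 39761) against 6264 at 3M. Free RNA differed between the libraries. Cells with mesenchymal markers, which should lack granule genes, were used as the measure of it (2145 cells at 1M, median 9626 UMIs, and 2772 cells at 3M, median 6302), and their median of Ngp, Camp, Ltf plus Lcn2 was 40.1 per 10000 at 1M and 5.08 at 3M. The libraries shared 49 barcodes, of which 0 were members of both. Scrublet called 324 of 8308 cells doublets at 1M, 49 of them members, and 10 of 4180 at 3M, 3 of them members, and the 3M share of 0.239% is too low for the caller to have worked there.

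The genes of the rule are given as a description of the choice. The sum of Elane, Mpo, Prtn3 and Ctsg ran from 50.4 to 718 per 10000 UMIs with a median of 281 over 1M members, and from 50.9 to 696 with a median of 268 over 3M members. Just outside the limit lay cells at 49.5 at 1M and 46.6 at 3M, and 34 members at 1M and 14 at 3M were under 60. In mesenchymal cells the same sum had a median of 5.74 at 1M and 0 at 3M, with a 95th percentile of 10.6 and 3.75, so the limit lay above the free RNA level. Elane had a median of 124 per 10000 at 1M and 122 at 3M, Mpo of 63.1 and 57.9, Prtn3 of 60.9 and 53.7, and Ctsg of 27.3 and 41.5. Prss57 had a median of 3.36 and 2.93. All 5 genes had a UMI in 667 of 771 members at 1M and 173 of 214 at 3M.

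The protease genes of the rule lie in groups on the genome. Prss57 (chr10:79781474-79790961, minus strand), Prtn3 (chr10:79874476-79883174, plus) and Elane (chr10:79886247-79888215, plus) lie close together on GRCm38, Prtn3 and Elane side by side. Ctsg (chr14:56099881-56102574, minus) lies beside Mcpt8 (chr14:56082166-56085273, minus), and Mpo (chr11:87793581-87804413, plus) is on a chromosome of its own. RefSeq promoters (GRCm38.p6) were found for 4 of the 5 genes, without Prss57, and stretches of them are shown because these genes were read together as the choice of members. Capitals mark GAGGAA, the core that PU.1, a myeloid transcription factor, binds. Each stretch is written 5′ to 3′ on the gene's own strand, and the stretches are placed by RefSeq starts, which can differ from the starts of the spans given above.
Elane chr10:79886097-79886246 (+): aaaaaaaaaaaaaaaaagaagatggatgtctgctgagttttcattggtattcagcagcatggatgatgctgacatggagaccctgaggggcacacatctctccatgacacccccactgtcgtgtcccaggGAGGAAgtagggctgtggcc
Mpo chr11:87793534-87793580 (+): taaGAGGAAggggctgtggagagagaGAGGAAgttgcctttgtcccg
Prtn3 chr10:79879464-79879613 (+): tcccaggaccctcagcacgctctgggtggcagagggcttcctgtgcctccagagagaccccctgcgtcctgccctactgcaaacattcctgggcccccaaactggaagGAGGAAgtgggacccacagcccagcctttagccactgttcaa
Ctsg chr14:56102675-56102824 (-): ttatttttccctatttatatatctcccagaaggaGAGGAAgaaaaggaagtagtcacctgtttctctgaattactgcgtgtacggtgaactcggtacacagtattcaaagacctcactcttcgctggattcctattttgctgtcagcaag
Searched on both strands over the 250 bases before to 50 after the start, GAGGAA was in all 4 promoters, at -85 from the start in Elane, -247 and -224 in Mpo, -95 in Prtn3 and -216 in Ctsg, and in 23.3% of 32851 promoters. AACNG (MYB) was also in all 4 but in 74.2% of promoters, and TGNGGT (RUNX) was in Ctsg alone of the 4 and in 40.1% of promoters. TTGCNNAA (C/EBP) and AGATAA, the letters searched for GATA factors, were in 0 of the 4, and in 9.56% and 9.99% of promoters. A match is a description of the letters in this window.

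Members were set against all other kept cells of their library (7537 at 1M, 3966 at 3M) and against another group with granule genes, granule cells with cycle genes (1013 at 1M, median 17084 UMIs, and 183 at 3M, median 9657). Those had Ngp, Camp, Ltf plus Lcn2 at 300 per 10000 or more and a UMI in at least 3 of 5 cycle genes, so these 9 genes are high there by choice. Levels are in CPM, a gene's UMIs per 1000000 UMIs summed over all cells of a group, and paired values are 1M first and 3M second. A gene was called where its CPM differed at least 2-fold in the same direction in both libraries with Poisson intervals that did not overlap and with at least 50 CPM in either group. Against all other cells, 7.88% of 2499 genes were higher and 14.8% lower, with a median log2 ratio over all genes of 0.23 at 1M and 0.40 at 3M. Against granule cells with cycle genes, 29.0% of 2245 genes were higher and 5.70% lower, with a median of 0.54 and 0.78. Granule genes fill a large part of the UMIs of those cells, where the specific and gelatinase list summed to 171043 and 180394 CPM and the late neutrophil list to 235834 and 304921, and list values are read against these medians. Against monocyte marker cells (730 at 1M and 137 at 3M), 5.93% of 2564 genes were higher and 15.9% lower.

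Some of the azurophil granule genes outside the rule were high in members along with the rule's own. Of the 20 listed, 18 reached the level for a call, and 6 of them were higher and 0 lower than in all other cells, where 7.88% and 14.8% of all genes were. Against granule cells with cycle genes, 8 were higher and 1 lower, where 29.0% and 5.70% of all genes were. The median log2 ratio of the list was 0.52 and 0.27 against other cells and 0.98 and 0.91 against granule cells with cycle genes, at 1M and 3M, so at 3M it was below the median of all genes (0.40) against other cells. Its summed level was 10832 CPM (10785 to 10878) at 1M and 10846 CPM (10734 to 10959.8) at 3M, against 4829 and 4615 in granule cells with cycle genes and 10135 and 14083 in basophil-like cells, the 28 and 3 cells with 30 or more Mcpt8 plus Prss34 per 10000 that were in neither group.

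Ms4a3, a membrane protein of granulocyte and monocyte progenitors, stood at 1347 CPM (1331 to 1364) in the 1M library and 1467 CPM (1426 to 1509) in the 3M library. It was at 213 and 245 CPM in granule cells with cycle genes, so members stood 6.32 and 5.98-fold above, and at 31.04 and 5.76 in mesenchymal cells. Per cell its lowest value was 0, its median 12.0 and its highest 38.7 per 10000 UMIs at 1M, and 0, 12.9 and 50.7 at 3M. Thinned to 3000 UMIs a cell, 84.7% (82.0 to 87.2) of 1M members and 89.2% (84.2 to 93.0) of 3M members had a Ms4a3 UMI, against 10.3% and 1.93% of mesenchymal cells, and without thinning the members' shares were 96.4% and 95.3%. Cst7, which encodes cystatin F, an inhibitor of cathepsins, had the largest ratio to all other cells of the genes outside the rule with at least 200 CPM, taking the smaller ratio of the libraries (22.5 and 63.3-fold), and stood at 303 CPM (295 to 311) in the 1M library and 395 CPM (374 to 417) in the 3M library. Its level was 12.3 and 13.04 CPM in granule cells with cycle genes, so members stood 24.6 and 30.3-fold above. Nkg7, a granule membrane protein also known from cytotoxic lymphocytes, was at 1004 CPM (990.3 to 1019) in the 1M library and 1371 CPM (1332 to 1412) in the 3M library, against 77.8 and 82.4 in granule cells with cycle genes. Basophil-like cells held these genes too, with Ms4a3 at 457 and 1197 CPM, Cst7 at 297 and 199 and Nkg7 at 527 and 1037. Ms4a3, Cst7 and Nkg7 were thus high in members and low in the granule cells with cycle genes and the mesenchymal cells, and Cst7 at 1M was as high in basophil-like cells as in members.

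Srgn encodes serglycin, the proteoglycan that packs proteases in granules, and was at 2556 and 2633 CPM against 567 and 307, and higher in basophil-like cells (3209 and 5067). Clec12a, an inhibitory myeloid receptor, was at 644 and 565 against 289.7 and 274, and Ctsc, which encodes the dipeptidyl peptidase that activates the serine proteases, at 78.6 and 120.1 against 29.6 and 15.1. Serpinb1a, an inhibitor of elastase, proteinase 3 and cathepsin G, was at 952 and 757 CPM, above other cells (285 and 111) and near granule cells with cycle genes (797 and 874). Rgcc, a cell cycle regulator, at 682 and 714 CPM, and Gusb, a lysosomal glucuronidase, at 89.6 and 90.5 CPM, were the other genes called higher than in granule cells with cycle genes (305 and 303 for Rgcc, 41.7 and 39.6 for Gusb). Mgst1, a membrane glutathione transferase, was the list's gene called lower, at 314 and 262 against 634 and 678.

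Genes that lie near the proteases of the rule were not called higher in members. Of 12 such genes, 1 reached the level for a call against granule cells with cycle genes, R3hdm4, and it was lower in members. R3hdm4 stood at 82.3 and 76.5 CPM against 199 and 219. The summed level of the 12 was 158 and 154 CPM at 1M and 3M, against 286 and 168 in all other kept cells. The 12 include Mcpt8, which the rule limits in members, so its level (28.1 and 33.8 CPM, against 127 and 52.6 in other cells) and its part in that sum are set by the choice. Cfd, which encodes complement factor D and lies next to Elane, had 1 UMI over 1M members and 0 over 3M members.

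**Figure D1:**
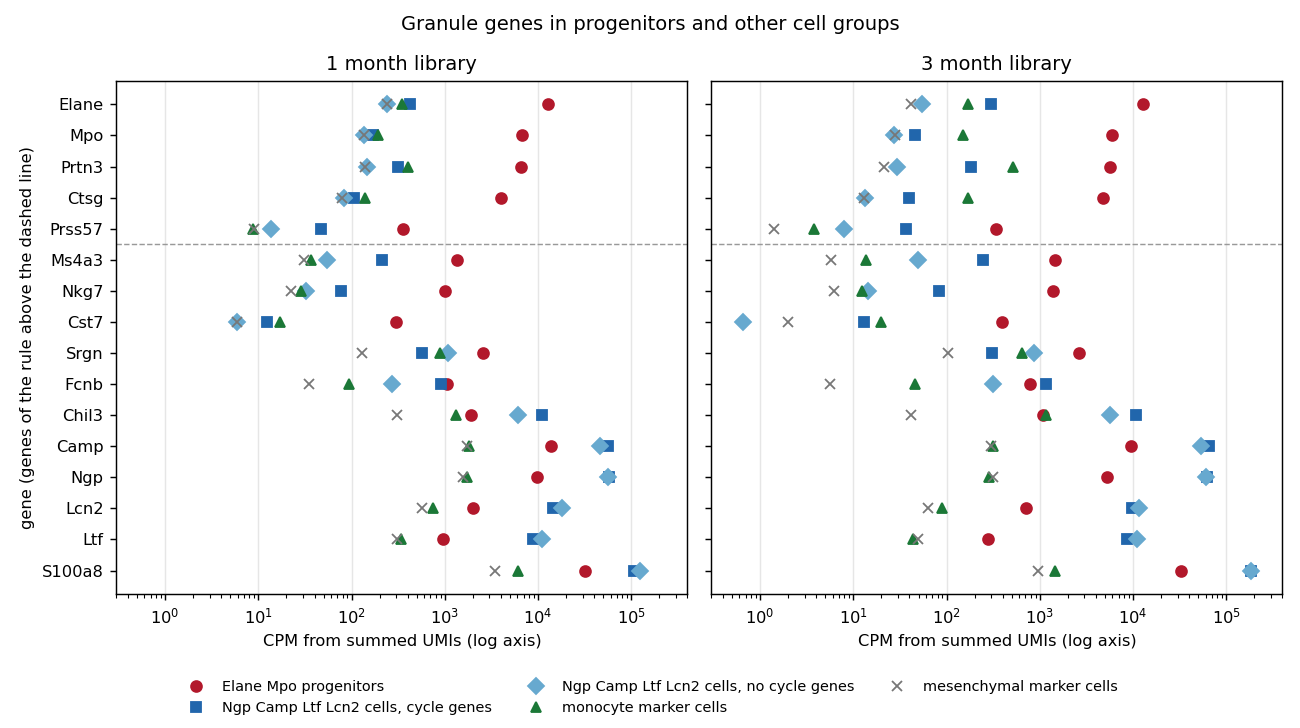
CPM (log axis) of 16 granule genes in members and 4 other groups of cells, 1 panel for each library, with the genes of the rule above the dashed line. Of the groups drawn, members are highest in Ms4a3, Nkg7, Cst7 and Srgn, while Camp, Ngp, Lcn2, Ltf and S100a8 are higher in the granule cells. Members read 1347 CPM of Ms4a3 at 1M and 1467 at 3M.

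Specific and gelatinase granule genes were low beside the granule cells, and 17 of 20 reached the level for a call, with 0 higher and 14 lower. Over all genes 5.70% were lower. The list holds Ltf, Camp, Ngp and Lcn2, the 4 genes that chose that group, so this count and the median below are in part set by the choice. Against all other cells, 16 of 20 reached the level, with 1 higher and 4 lower, where 7.88% and 14.8% of all genes were. The list's median log2 ratio was -2.16 and -2.98 to granule cells with cycle genes and -0.95 and -0.51 to other cells. Ltf (lactoferrin), 1 of the 4 granule genes that chose that group, stood at 962 CPM (948 to 976) in the 1M library and 280.1 CPM (262 to 299) in the 3M library, against 8733 and 8552 there and 305 and 49.9 in mesenchymal cells. Camp (cathelicidin) was at 13910.5 and 9476 CPM against 55891 and 64929.9, Ngp (neutrophilic granule protein) at 9644 and 5295 against 57087 and 62185, and Lcn2 (lipocalin 2) at 2008 and 711 against 14448 and 9674. The sums came mostly from a minority of members, as the median member had 21.2 and 3.11 Camp UMIs per 10000. These genes were also found in mesenchymal cells, above all at 1M, since after thinning Camp had a UMI in 99.4% of mesenchymal cells at 1M and 47.7% at 3M, and in 99.2% (98.3 to 99.7) and 64.8% (58.0 to 71.2) of members. Well above that level, 213 members at 1M (27.6%, 24.5 to 30.9) and 39 at 3M (18.2%, 13.3 to 24.1) had Ngp, Camp, Ltf plus Lcn2 at 300 per 10000 or more. Without them the specific and gelatinase list fell from 36229.8 and 22200.3 to 12446 and 5057 CPM.

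Genes that were not in the choice of the granule cells went the same way. Chil3, which encodes a secreted chitinase-like protein, stood at 1894 CPM (1875 to 1914) in the 1M library and 1075 CPM (1040.2 to 1112) in the 3M library, against 10948 and 10680.3, and Cd177, a surface glycoprotein of neutrophils, at 77.3 and 67.4 against 516 and 861. Fcnb, which encodes ficolin B, was the exception: at 1054 and 779.7 CPM it was near granule cells with cycle genes (917 and 1153) and was the list's 1 gene called higher than all other cells (266 and 106). Of 20 late neutrophil genes, 13 reached the level and 8 were lower than in granule cells with cycle genes and 0 higher, where 5.70% and 29.0% of all genes were. The list's median was -1.70 and -2.32. S100a8 stood at 31914 CPM (31834 to 31994) in the 1M library and 32389.9 CPM (32196 to 32585) in the 3M library, against 107137 and 184564, and S100a9 at 30678 and 16165 CPM. The genes with the lowest ratios also included Ifitm6, AA467197, Orm1 and Chil1, and Ly6g, at 70.8 and 14.6 CPM.

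Genes for protein folding and export in the endoplasmic reticulum were high in members beside granule cells with cycle genes. Of 26, 24 reached the level and 21 were higher and 0 lower, where 29.0% of all genes were higher. The list's median log2 was 1.57 and 1.99, above the 0.54 and 0.78 of all genes. The list summed to 9807 CPM (9763 to 9851) at 1M and 10957 CPM (10844 to 11070.4) at 3M, against 2856 and 2408 there, and mesenchymal cells, which secrete collagen, were close at 10994 and 9184. Basophil-like cells (28 and 3) stood higher than members, at 14086 and 16437. Calr (calreticulin, a calcium-binding chaperone) stood at 1591 and 1532 CPM against 184 and 103 in granule cells with cycle genes. Sdf2l1, a part of an ER chaperone complex, was at 333 and 558 against 30.4 and 35.5 there. Both were higher in basophil-like cells, Calr at 2434 and 2593 and Sdf2l1 at 433 and 678. Against granule cells with cycle genes, Hspa5 (BiP) was at 880.2 and 881 against 259 and 237, and Pdia6, a disulphide isomerase, at 467 and 482 against 79.0 and 72.0. Set against all other cells, 3 of 25 (Calr, Sdf2l1 and Spcs2) were called higher and 0 lower, where 7.88% of all genes were higher. The list's median log2 ratio to other cells was 0.61 and 0.30, above that of all genes at 1M (0.23) and below it at 3M (0.40).

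Ribosome biogenesis genes were high too, since all 13 of the 20 that reached the level were higher than in granule cells with cycle genes. Over all genes 29.0% were. Their median log2 ratio was 2.16 and 3.06, and 0.87 and 1.33 to all other cells. Against all other cells 4 of 13 (Fbl, Nop10, Gar1 and Nhp2) were called higher and 0 lower, where 7.88% and 14.8% of all genes were. They summed to 3817 CPM (3789 to 3845) at 1M and 4360.5 CPM (4289 to 4433) at 3M, against 971 and 547 in granule cells with cycle genes. B-lineage marker cells (582 and 15) stood higher than members, at 4996 and 4712. Against granule cells with cycle genes, Npm1 (nucleophosmin) stood at 1334 and 1444 CPM against 282 and 146, and Ncl (nucleolin) at 732 and 533 against 253 and 81.9. Fbl (fibrillarin, an rRNA methyltransferase) was at 189 and 248 against 32.6 and 17.2. Beyond the lists, the genes with the largest ratios included Gstm1 (a glutathione transferase) at 725 and 821 against 50.6 and 62.6, Plac8 at 3733 and 4841 against 533 and 373, and Mif (macrophage migration inhibitory factor) at 524 and 889 against 81.0 and 40.2. C1qbp, a mitochondrial matrix protein, was at 209.7 and 262 against 26.2 and 10.4. Among the 15 genes with the largest ratios to all other cells were also Etfb (electron transfer flavoprotein) at 529 and 769 against 138 and 146, Tuba4a (an alpha tubulin) at 929 and 569 against 246 and 59.2, Cmtm7 at 805 and 953 against 219 and 117 and Ramp1 at 407 and 472 against 124 and 113.

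**Figure D2:**
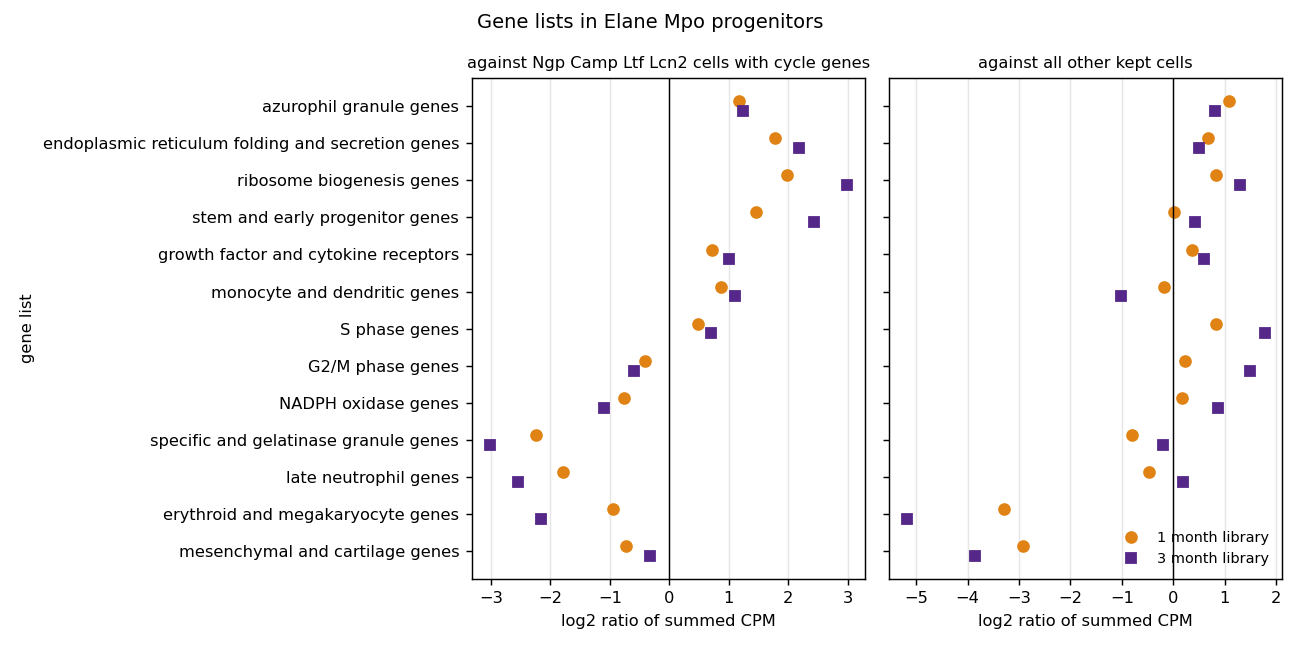
Log2 ratio of summed CPM of 13 gene lists in members to granule cells with cycle genes (left) and to all other kept cells (right), for 1M (orange circles) and 3M (purple squares). Ribosome biogenesis and ER genes lie to the right on the left panel, and specific and gelatinase granule genes to the left. The specific and gelatinase list and the G2/M list hold the genes that chose the granule cells with cycle genes.

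Transcription factors of the lineage were low in level and split. Of 30 listed, 29 were in the tables and 10 reached the level against granule cells with cycle genes. Of these 10, 3 were higher (Myb, Irf8 and Zeb2), a share near that of all genes (29.0%). Another 2 were lower (Id2 and Trib1), where 5.70% of all genes were. The list's median log2 ratio there was -0.39 and -0.32, below the 0.54 and 0.78 of all genes. Against all other cells 2 of 11 were higher and 4 lower, where 7.88% and 14.8% of all genes were. Myb, a factor of proliferating progenitors, stood at 79.3 CPM (75.3 to 83.3) in the 1M library and 135 CPM (122 to 148) in the 3M library, against 15.4 and 19.8. Irf8, a factor of monocyte and dendritic development, was at 91.6 CPM (87.3 to 95.9) in the 1M library and 89.3 CPM (79.4 to 100.1) in the 3M library, against 22.6 and 7.30 there and 212 and 204 in monocyte marker cells. Zeb2, a zinc finger repressor, was at 104 and 112 CPM against 29.7 and 30.8. Against all other cells the higher genes were Myb and Cebpe, and the lower ones Klf4, Sox4, Id2 and Trib1. Trib1, which lowers C/EBPα protein, was at 44.0 and 36.9 against 124 and 96.5, and Id2, an inhibitor of basic helix-loop-helix factors, at 39.2 and 30.2 against 79.4 and 92.3.

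Factors of granulocyte development were measured at modest level. Gfi1, a repressor needed for neutrophils, stood at 20.7 CPM (18.7 to 22.8) in the 1M library and 32.6 CPM (26.7 to 39.4) in the 3M library, against 5.43 and 6.26 in granule cells with cycle genes, and was under the 50 CPM needed for a call. Thinned, it had a UMI in 4.799% (3.40 to 6.55) of 1M and 6.57% (3.64 to 10.8) of 3M members, against 0.280% and 0.116% of mesenchymal cells, and unthinned in 29.6% and 30.4% of members. Cebpe, which drives the specific granule genes, was at 313 CPM (305 to 321) in the 1M library and 264 CPM (246 to 282) in the 3M library, against 439 and 474 in granule cells with cycle genes. Cebpa, an early myeloid factor, was at 34.3 and 50.6 CPM and Spi1, which encodes PU.1, at 379 and 269. Cebpd was not analysed here.

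Stem and early progenitor genes were few above the level. Of 20, 3 reached it against granule cells with cycle genes and all 3 (Cdk6, Lmo2 and Cd48) were higher, where 29.0% of all genes were. Their median was 2.74 and 3.37. Against all other cells 1 of 5 was higher (Cdk6) and 2 lower, where 7.88% and 14.8% of all genes were. Cdk6, a cyclin-dependent kinase of early progenitors, stood at 155 CPM (149 to 160.3) in the 1M library and 257 CPM (239.6 to 275) in the 3M library, against 22.6 and 24.5. Lmo2, a scaffold of blood transcription factors, was at 111 and 181 CPM and Cd48, a surface protein of committed progenitors, at 57.1 and 98.5. Kit, the stem cell factor receptor, was at 9.45 and 13.4 CPM, and after thinning had a UMI in 2.85% (1.80 to 4.29) of 1M and 2.82% (1.04 to 6.03) of 3M members against 0.793% and 0.695% of mesenchymal cells, and unthinned in 18.4% and 18.2% of members. Cd34 was at 23.6 and 44.2 CPM, with a thinned share of 6.36% (4.74 to 8.32) and 11.3% (7.35 to 16.3), which is below mesenchymal cells at 1M (11.0%) and above them at 3M (4.67%), and an unthinned share of 25.6% and 27.6%. The paper reports Cd34 in its early mesenchymal progenitors, so for this gene the mesenchymal share is not a measure of free RNA. Beside the label of granulocyte progenitor, 6 of 18 azurophil genes outside the rule were called higher than in all other cells (7.88% of all genes were). Kit and Cd34 were scarce.

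Of 25 receptors, 4 reached the level against granule cells with cycle genes and 2 (Ifngr1 and Cd48) were called higher, where 29.0% of all genes were. Against all other cells 0 of 4 were called, where 7.88% of all genes were higher and 14.8% lower. Ifngr1, a chain of the interferon gamma receptor, stood at 230.0 and 193 against 73.0 and 61.6. Csf3r, the granulocyte colony-stimulating factor receptor, stood close in the groups, at 45.5 and 30.2 against 44.6 and 30.3. Cxcr4, which holds cells in marrow, was at 21.5 and 52.7 against 21.9 and 54.3. It was the 1 receptor of 5 called higher at 3M than at 1M, where 3.08% of all genes were. The 3M level was above the 1M level in both groups.

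Monocyte and dendritic genes, as a sum carried mostly by Ly6c2, were above granule cells with cycle genes and below monocyte marker cells. Of 20, 9 reached the level and 4 were higher and 1 lower than in granule cells with cycle genes, where 29.0% and 5.70% of all genes were. The median log2 ratio was 0.55 and 1.35, close to the 0.54 of all genes at 1M. Against all other cells, 1 of 12 was higher and 7 lower, where 7.88% and 14.8% of all genes were. The list summed to 3746 CPM (3719 to 3774) at 1M and 3268 CPM (3207 to 3331) at 3M, against 2040.3 and 1522 in granule cells with cycle genes and 12778 and 23222 in monocyte marker cells, which were chosen by 5 of these genes. Ly6c2, a surface marker of classical monocytes, stood at 2734 and 2320.3 CPM against 1152 and 848, and 3230.2 and 2217 in monocyte marker cells. F13a1, coagulation factor XIII, was at 81.5 and 94.8 CPM and Ms4a6c at 111 and 127.

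Genes of the other granules, of heme and of oxidant production gave mixed counts. NADPH oxidase genes, the enzyme that feeds Mpo with peroxide, numbered 7, with 0 higher and 1 lower than in granule cells with cycle genes (median -0.70 and -0.95). The lower gene was Cybb, which encodes gp91phox and stood at 228 and 116 CPM against 799 and 619. Of 9 heme synthesis genes, 2 reached the level against granule cells with cycle genes and 1 was higher, Alas1, the rate-limiting enzyme outside red cells, at 152 and 195 against 70.2 and 90.8. Of 14 protease inhibitor genes, 6 reached the level and 1 was higher (Cst7) and 1 lower (BC100530). Basophil, mast cell and eosinophil genes were 18 and summed to 305 and 315 CPM against 63.5 and 25.1 in mesenchymal cells (184 and 172 CPM in members without those that carried Prg2), and of the 2 that reached the level Prg2 was higher and Hdc, which makes histamine, lower. Against all other cells, 0 of 7 NADPH oxidase genes were called, 1 of 2 heme genes was higher (Alas1), and of 6 protease inhibitors 2 were higher and 2 lower. Of 4 basophil, mast cell and eosinophil genes, Prg2 was higher and Prss34, a gene the rule limits, was lower. Over all genes, 29.0% were higher and 5.70% lower than in granule cells with cycle genes. Against all other cells, 7.88% of all genes were higher and 14.8% lower.

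Cell cycle genes were detected in part of the members in both libraries. Thinned to 3000 UMIs, 29.6% (26.4 to 32.9) of 1M members and 22.1% (16.7 to 28.2) of 3M members had a UMI in at least 3 of Mki67, Top2a, Birc5, Ube2c and Cdk1, with 1 member of 3M too shallow to thin. Mesenchymal cells stood at 3.68% and 1.82%, monocyte marker cells at 16.8% and 28.9%, all other cells at 22.3% and 7.31%, and granule cells with cycle genes, which these genes chose, at 52.7% and 59.3%. Without thinning the members' shares were 89.9% and 73.4%, so depth moved this measure strongly. Thinned to 2000 UMIs they were 15.7% (13.2 to 18.5) at 1M and 17.8% (12.9 to 23.5) at 3M, against 16.9% and 4.39% of all other cells, so the order of the libraries, and of members and other cells at 1M, turned with the depth chosen. S phase genes summed to 3293 CPM (3268 to 3319) and 2812 CPM (2755 to 2870.0), above granule cells with cycle genes at 2358 and 1734, and 5 of 18 were called higher and 0 lower, a share near that of all genes (29.0%), with a median log2 ratio of 0.70 and 0.82. G2/M genes summed to 6234 CPM (6198 to 6269) and 6189 CPM (6105 to 6275), below 8314 and 9292, with 1 of 27 higher and 1 lower (Cenpf). That list holds Mki67, Top2a, Birc5, Ube2c and Cdk1, which chose the granule cells with cycle genes. Its lower sum in members is therefore in part set by the choice. Against all other cells, where 7.88% of all genes were higher, 7 of 18 S phase genes and 1 of 23 G2/M genes were higher and 0 lower. Mcm5, a part of the replicative helicase, was at 153 and 127 CPM against 70.1 and 48.5, Mcm6, another part of it, at 189 and 129.6 against 71.7 and 35.0, and Cks1b, a kinase subunit, at 275 and 359 against 129 and 167.

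Members differed among themselves in their granule genes. They were put in 3 equal parts in each library by the share of Ngp, Camp, Ltf, Lcn2, Fcnb and Chil3 UMIs among these plus Elane, Mpo, Prtn3 and Ctsg. The parts held 257 members each at 1M and 72, 71 and 71 at 3M, with median shares of 10.2%, 27.2% and 79.1% at 1M and 1.71%, 4.29% and 59.7% at 3M. The low and middle parts both held Ngp, Camp, Ltf plus Lcn2 per 10000 near the level of mesenchymal cells, with medians of 40.5 and 44.2 at 1M and 4.71 and 6.08 at 3M. They were deeper than mesenchymal cells, with medians of 26458 and 22243 UMIs against 9626 at 1M and 17077 and 14940 against 6302 at 3M. The part of free RNA in these values was therefore not tested. The low and middle parts differed in Elane, Mpo, Prtn3 plus Ctsg, with medians of 456 and 194 at 1M and 377 and 199.99 at 3M. The split between them was thus made mostly by the genes of the rule. The high part had medians of 621 and 398 of the late genes. A part is a range of a score and not a type, and the 10 genes that set the order are not results. Values below run from the part with the lowest share to that with the highest, in CPM.

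Ribosome biogenesis and ER genes were lowest in the high part. Ribosome biogenesis genes summed to 5116, 4373 and 1942 at 1M and 5520.4, 5153 and 2093 at 3M, and ER genes to 13423, 9937 and 5874 at 1M and 13459.9, 11744 and 7038 at 3M. Npm1 stood at 1759, 1622 and 623 at 1M and 1859, 1713 and 648 at 3M, and Calr at 2527, 1534 and 655 at 1M and 2214, 1579.9 and 641 at 3M. Myb was at 135, 65.7 and 32.7 at 1M and 213, 114 and 60.2 at 3M, and Cst7 at 496, 237 and 159 at 1M and 592, 343 and 208 at 3M. Ms4a3 was lower in the middle and high parts than in the low part, at 1939.6, 1029.7 and 1010.1 at 1M and 1768, 1339.8 and 1229 at 3M.

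NADPH oxidase genes and late neutrophil genes were highest in the high part. Cybb stood at 67.9, 146 and 472 at 1M and 27.7, 52.2 and 294 at 3M, and the NADPH oxidase list at 2529.5, 3066 and 5176 at 1M and 1728, 2051 and 4035 at 3M. S100a8 was at 9429, 17504 and 68687 at 1M and 4428, 8487 and 92121 at 3M, and Cebpe was near equal in the low and middle parts and higher in the high part, at 231, 221 and 484 at 1M and 182, 157 and 477 at 3M. G2/M genes summed to 5276, 6239 and 7238 at 1M and 5501, 6264 and 6959 at 3M. Mki67, a cycle gene, was at 66.7, 125 and 156 at 1M and 36.6, 63.6 and 89.2 at 3M. S100a8 and other granule genes took a larger part of the UMIs in the high part, and their place in the lower values of other genes was not tested.

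Among members with late granule RNA near the free level, some genes were higher where the genes of the rule were lower, in the middle part. Irf8 stood at 38.3, 214 and 37.3 CPM at 1M and 59.4, 157 and 55.2 at 3M. F13a1 was at 48.3, 162 and 44.0 at 1M and 56.1, 155 and 79.2 at 3M, and Cd34 at 17.5, 48.2 and 7.84 at 1M and 48.8, 73.1 and 8.02 at 3M. These are genes of monocyte and early progenitor lists, and the intervals of the middle part did not overlap those of the others, other than for Cd34 at 3M, where the low and middle parts overlapped. They moved more than the sums of their lists. Stem and early progenitor genes summed to 549, 593 and 249 at 1M and 853, 931 and 402 at 3M. Monocyte and dendritic genes summed to 3560, 4755 and 3031 at 1M and 2725, 3702 and 3480 at 3M. Basophil, mast cell and eosinophil genes summed to 191, 535 and 218 at 1M and 194, 582 and 182 at 3M. Median UMIs of the parts were 26458, 22243 and 23345 at 1M and 17077, 14940 and 13786 at 3M.

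**Figure D3:**
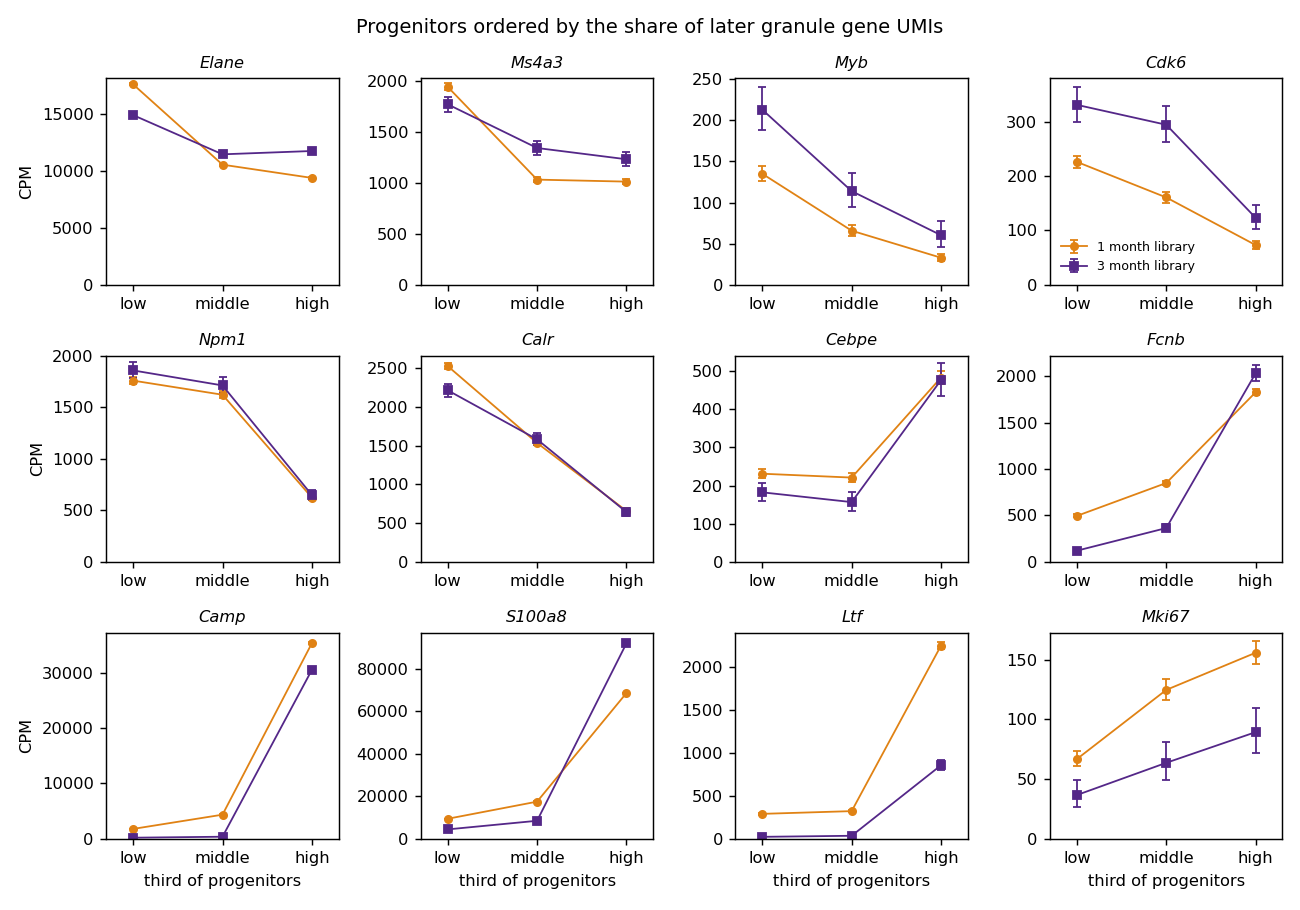
CPM of 12 genes in the 3 equal parts of members of each library, ordered from the lowest to the highest share of late granule UMIs, with bars for 95% Poisson intervals. Npm1, Calr, Myb and Cdk6 are lowest in the high part and Camp and S100a8 highest there, while the low and middle parts were split mostly by the genes of the rule.

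A few members held most of some RNAs that the other members lack. Prg2, which encodes eosinophil major basic protein, had a summed level of 96.4 and 117 CPM, but 6 members at 1M and 2 at 3M had it at 10 per 10000 or more. The 5 members with the most held 93.8% of its UMIs at 1M and 99.5% at 3M, and the remaining members stood at 2.92 and 2.45 CPM. In those 6 and 2 members Prg3 stood at 2870.3 and 4718 CPM and Epx, eosinophil peroxidase, at 469.8 and 798. Elane was at 3212 and 2323 there, below the remaining members (12735 and 12888), and Mpo at 4510.5 and 3992. The calls of Prg2 as higher in members rest on these few cells, which carried eosinophil granule genes beside the genes of the rule.

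Mesenchymal RNA was held unevenly too. Col1a1, Col1a2, Sparc, Serpinh1 plus Bgn reached 100 per 10000 in 13 members at 1M and 3 at 3M. Bglap, which encodes osteocalcin, stood at 437 and 1115 CPM over all members and at 243 and 224 without those members. At 3M, 1 member held 79.9% of the Bglap UMIs (2924 of 3658) and 80.9% of those of Col1a1. Elane in the set-apart members was at 9109 and 5826 CPM. At 1M, Scrublet called 7 of the 13 doublets, and 1 of the 6 members with Prg2. At 3M, where it called too few cells to have worked, it called 2 of the 3 and 0 of the 2 members with Prg2.

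**Figure D4:**
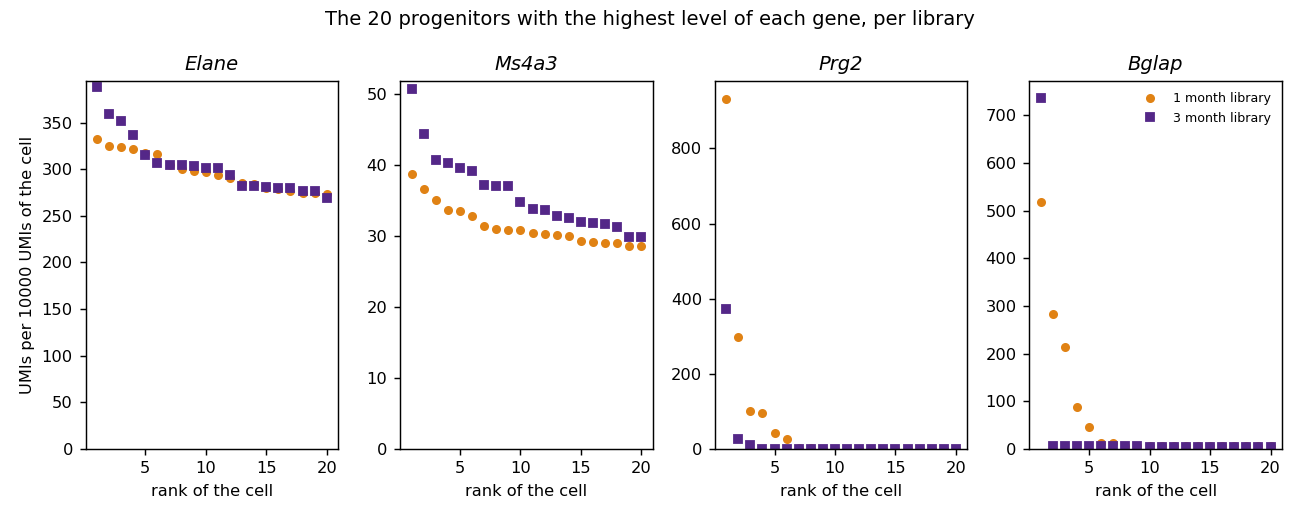
UMIs per 10000 of Elane, Ms4a3, Prg2 and Bglap in the 20 members of each library with the most of that gene, ordered from high to low. Elane and Ms4a3 stay close over the 20 members, while Prg2 is high in the first few, where the top members read 933 per 10000 at 1M and 373 at 3M.

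Summed red cell and lymphoid markers were below their level in mesenchymal cells, used here as the measure of free RNA. Of the erythroid and megakaryocyte genes that reached the level, 6 of 6 were lower than in all other cells, where 14.8% of all genes were. The list summed to 5948 and 391 CPM, below mesenchymal cells (17282 and 1347). Globin genes made up much of this sum, with Hbb-bs at 3089.6 and 173 CPM and Hba-a1 at 1285 and 91.1. Megakaryocyte genes were not summed apart. Hba-a1 had a UMI in 85.6% (82.9 to 88.0) and 22.1% (16.7 to 28.2) of thinned members, against 87.0% and 23.0% of mesenchymal cells. Lymphoid genes, of which 16 of 20 were in the tables, summed to 174 and 32.3 CPM, below mesenchymal cells (315 and 197). That list holds Ebf1, which the paper places among transcription factors of the adipogenic branch. Its mesenchymal level can thus include their own RNA and is not a measure of free RNA alone. In granule cells with cycle genes the lymphoid list summed to 197 and 49.0 CPM. Endothelial and mural genes summed to 37.0 and 40.2 against 539 and 573 in mesenchymal cells. At 3M, Pax5, Dntt, Rag1 and Ms4a1 had 0 UMIs over all members. The 5 sex genes summed to 108 and 93.3 CPM against 105 and 108. Of 16 mesenchymal and cartilage genes, 15 were lower than in all other cells, where 14.8% of all genes were. The list summed to 4858 and 5490.2 CPM against 97251 and 107399 in mesenchymal cells and 8090.2 and 6881 in granule cells with cycle genes. Without the 13 and 3 members that carried mesenchymal RNA the sum was 3919 and 2773 CPM, so the 3M level was then below the 1M level. The reporter transcript tomato stood at 1628 and 1181 CPM in members, 2639 and 2191 in granule cells with cycle genes and 3293 and 3579.6 in mesenchymal cells, and after thinning to 3000 UMIs had a UMI in 97.1% (95.7 to 98.2) and 92.5% (88.1 to 95.6) of members against 98.6% and 99.7% of mesenchymal cells.

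Between 3M and 1M members, 3.08% of 2466 genes were higher at 3M and 2.35% lower, with a median log2 ratio of 0.03 over all genes and the call made on the 1 ratio of 3M to 1M. Of the 76 higher genes, 34 were also called higher in mesenchymal cells and 34 in granule cells with cycle genes, with 24 in both. Of the 58 lower, 30 and 21 were, with 11 in both. This left 32 higher and 18 lower genes called in members and in neither of those groups, although a gene may miss the call there without a shown difference.

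The lower genes were led by red cell and late neutrophil transcripts. Hbb-bs (beta globin) stood at 3089.6 CPM at 1M and 173 at 3M, and mesenchymal cells at 9002 and 551. Retnlg, a resistin-like gene of neutrophils, was at 1359 and 125 in members and 683 and 72.7 in mesenchymal cells, and Hbb-bt, Hba-a1, Hba-a2, Mmp8, AA467197, BC100530, Ly6g and Car2 made up the rest of the 10 lowest. The part of free RNA in these values was not tested. Of 15 specific and gelatinase granule genes that reached the level, 4 were lower (median -0.82), where 2.35% of all genes were. Of 18 azurophil genes 0 were called (median -0.14). The summed specific and gelatinase list had a log2 ratio of 3M over 1M of -0.71, and of -1.30 without members that held 300 or more late granule UMIs per 10000.

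The higher genes were led by ribosomal pseudogene transcripts, Rps18-ps3 at 103 and 715 CPM among them, which share sequence with their parent genes, so their reads could be split either way and the values are uncertain. Gm10263, Gm8797, Rps27rt, Gm10036, Rpl13-ps3, Gm4950, Rpl27-ps3 and Gm11273 were the others of the 10 highest besides Hspa1a. Hspa1a, an inducible heat shock protein, stood at 44.0 CPM (41.1 to 47.0) in the 1M library and 208 CPM (193 to 224) in the 3M library. It was at 22.8 and 23.0 in granule cells with cycle genes and 84.1 and 154 in mesenchymal cells, and after thinning had a UMI in 6.10% (4.51 to 8.02) of 1M and 30.5% (24.4 to 37.2) of 3M members (19.97% and 48.1% unthinned), against 16.1% and 22.6% of mesenchymal cells. Monocyte marker cells went the same way as members, at 122 and 413. The 5 members with the most held 31.1% and 22.5% of its UMIs. Of 13 immediate early and stress genes that reached the level, a list that holds Hspa1a itself, 5 were higher and 0 lower at 3M. Over all genes, 3.08% were higher and 2.35% lower, and the list's median was 0.73. Jund stood at 789 and 1777 CPM and Dusp1 at 47.2 and 124, and the list summed to 4792 and 7751 in members, 3463 and 4499 in granule cells with cycle genes and 11619 and 14927 in mesenchymal cells. All other kept cells also had higher levels at 3M, with Jund at 1316 and 2943, Dusp1 at 237 and 486 and the list at 7222 and 12893. Against all other cells of their own library, members had 9 of 15 of these genes lower and 0 higher, where 14.8% and 7.88% of all genes were. Cd69, an early activation antigen of leukocytes, was at 19.98 CPM at 1M and 55.5 at 3M in members and 2.40 and 0.560 in mesenchymal cells.

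**Figure D5:**
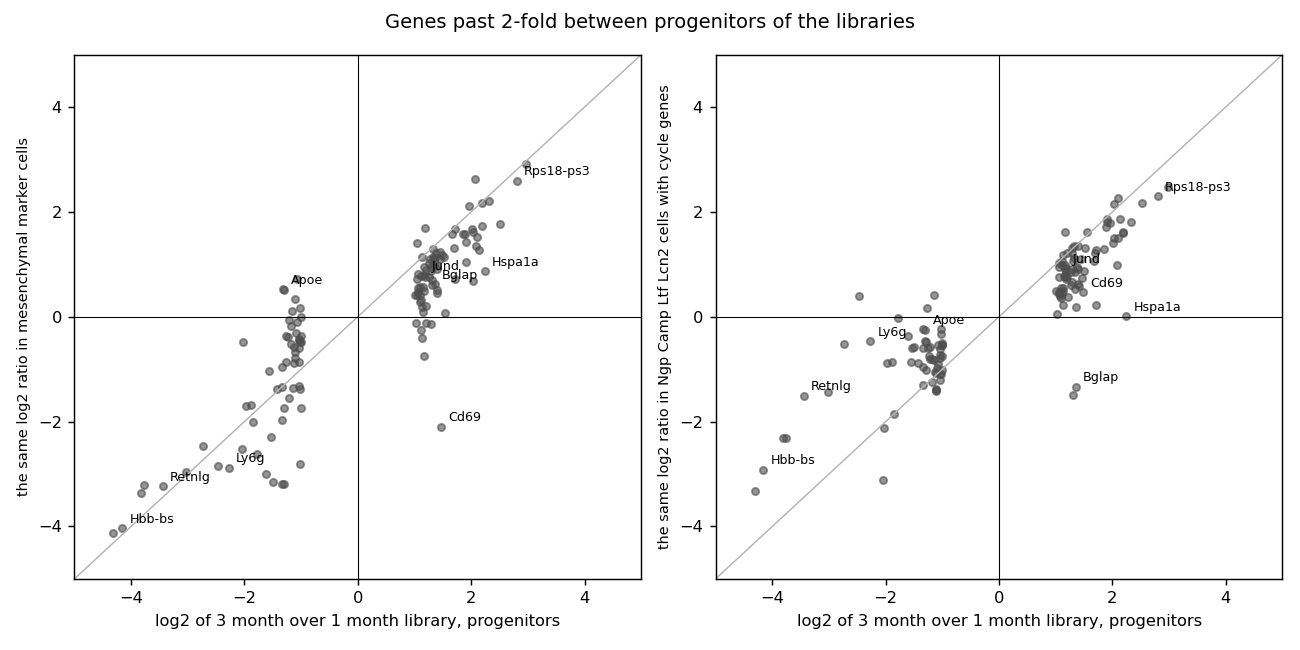
Log2 of 3M over 1M CPM in members (x axis) against the same in mesenchymal cells (left) and granule cells with cycle genes (right) for the 134 genes called between members, with a grey line where both are equal. Hbb-bs and Retnlg lie low on both axes of the left panel, while Hspa1a, Jund and Cd69 lie to the right of the line.

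The other lists held few calls between the libraries, apart from the erythroid genes. Over all genes, 3.08% were higher and 2.35% lower at 3M. Of 25 ER genes and 15 ribosome biogenesis genes, 0 were called at 3M against 1M, and their medians were 0.19 and 0.17. Of 28 G2/M genes 0 were called and of 23 S phase genes 1 was lower, and of 5 erythroid and megakaryocyte genes all 5 were lower. Myb was higher at 3M in level, 135 against 79.3 CPM, without reaching 2-fold. Of 8 transcription factors that reached the level, 0 were called. Of 12 mesenchymal genes, Bglap2 and Ibsp were higher at 3M and Col3a1 lower, and without the members that carried mesenchymal RNA Bglap2 was at 115 and 100.4 CPM and Ibsp at 46.8 and 60.7. Of 10 late neutrophil genes 3 were lower, and of 9 monocyte and dendritic genes 1 was lower (Cd74, at 97.5 and 48.2 CPM).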

How the data were processed

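The deposited values were UMI counts per gene and barcode, made by the authors with Cell Ranger 3.0.2 on mm10 extended with the reporter, and the submitters' processing notes also name Seurat 2. Counts were normalised only by the total of the cells summed. Levels carry exact Poisson intervals and shares exact Clopper-Pearson intervals. Other cells were grouped after the members, in this order, per 10000 UMIs: granule cells, basophil-like cells (Mcpt8 plus Prss34 at least 30), monocyte (at least 3 of 5 markers, sum at least 20), B-lineage (at least 2 markers, sum at least 20) and mesenchymal cells (at least 3 of 5 markers, sum at least 20, no Ptprc). List medians add 0.5 UMIs to each gene in both groups.

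The members and gene lists were chosen with earlier results of these data known. Genes named are those of the rule, members of the lists, the 15 with the largest smaller ratio over both libraries to all other cells, the 10 highest and 10 lowest against granule cells with cycle genes (at least 200 CPM), and the 10 highest and 10 lowest between libraries. Bglap and Cd69 were named after their values were seen. Of the settings varied, 60 were listed at the start and 9 were added after seeing the data. Positions are from GENCODE and promoters from RefSeq. Python 3.11.15, numpy 2.4.6, scipy 1.17.1, scanpy 1.11.5 (Scrublet, expected rate 8%, 30 components), anndata 0.12.19 and matplotlib 3.10.9 were used.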

Additional observations from a re-analysis of the deposited data

Results flagged for a closer look

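The same rule was met by a few cells of the 1.5M and 16M libraries, which were not compared here. At 1.5M it took 13 of 5453 kept cells (0.238%, 0.127 to 0.407), where a count of 0 would allow a share of up to 0.055%, and at 16M 38 of 6143 (0.619%, 0.438 to 0.848), where it would allow 0.0488%.

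For 3 genes called between 3M and 1M members, another group of cells moved the opposite way by at least 2-fold, and the difference between the groups was not tested. Bglap had a log2 ratio of 3M over 1M of 1.35 in members and -1.34 in granule cells with cycle genes, and Bglap2, a neighbouring osteocalcin gene, 1.30 and -1.49. Bglap was at 243 and 224 CPM without the 13 and 3 members that carried mesenchymal RNA. Cd69 had a log2 ratio of 1.47 in members and -2.10 in mesenchymal cells, at 19.98 CPM at 1M and 55.5 at 3M in members. Its mesenchymal levels were low, at 2.40 and 0.560 CPM. Granule cells with cycle genes stood at 8.71 and 12.0 CPM, monocyte marker cells at 11.3 and 10.0, and B-lineage marker cells at 122 and 143.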

How the results depend on the processing

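The share of kept cells that met the rule moved with the rule: at 1M it was 10.8% with a marker sum of at least 25, 7.62% with at least 100, 8.03% with all 5 markers and 6.72% without members that had secondary granule RNA, and at 3M it was 4.11%, 4.14% and 4.19% for the last 3 of these. It was 9.04% and 5.06% without called doublets, although at 3M the caller called too few cells to have worked. The share of members with cycle genes was 89.9% at 1M and 73.4% at 3M unthinned, and at 1M it was 15.7% thinned to 2000 UMIs and 25.4% without members with secondary granule RNA. Genes higher than in all other cells numbered 197, and 303 without those members, 318 at a minimum of 20 CPM and 102 at 100 CPM, and the lower ones 369, 763 and 200 at 50, 20 and 100 CPM. Against granule cells with cycle genes, 650 were higher, with 1104 at 20 CPM and 376 at 100 CPM, and 128 lower, with 212 at 20 CPM. Between libraries, 76 were higher, with 117 at 20 CPM, and 58 lower, with 152 at 20 CPM and 26 at 100 CPM. Without the limit on basophil genes, their log2 ratio to other cells turned positive, for Mcpt8 to 2.31 at 1M and for Prss34 to 1.87 at 1M and 8.07 at 3M, by the construction of that setting. Of 286 list ratios of 3M to 1M over all settings, 284 kept their side of the 2-fold limit, and of 572 list ratios to other cells 545 did. Leaving out members with mesenchymal RNA or with Prg2, or the 8% of cells with the highest doublet scores, was chosen after seeing the data. The mean over cells in place of the sum gives no count of called genes. No paired analysis was possible because each age was 1 library. Depth limits genes under 50 CPM, such as Gfi1 and Kit.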
